A study of Mus musculus with 3 samples.

Results

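Interferon-stimulated genes are genes whose transcription is switched on by interferons, the cytokines that warn tissues of infection. The group described here is 37 genes chosen by name, from the transcription factors of the interferon response to its antiviral effectors. Each gene was read through the array probes that carry its name, 55 probes in all, out of 27975 names with a probe. For each gene the probe with the highest mean intensity was used. Of the 37 genes, 35 had signal well above background on all 3 arrays in at least one genotype and were tested. The exceptions, Mx1 and Oas1g, were too dim.

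Type I interferons bind a receptor whose JAK kinases phosphorylate STAT2. A complex that holds STAT2 and IRF9 then binds a short DNA element, the interferon-stimulated response element (ISRE), in the promoters of the target genes. Interferon gamma acts mainly through another element, the gamma-activated site (GAS). Many of the targets are also expressed at a basal level in uninfected tissue, and macrophages express several of the IRF factors.

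The samples were ovaries of 10-week-old female C57Bl/6J mice taken at ZT12, 12 h after lights on, at 3.5 days post copulation. In the conditional knockout (cKO), Bmal1fx/fx mice carried Cre recombinase under the promoter of Sf-1, a transcription factor of steroidogenic cells, so ovarian cells that never express the Cre keep the clock gene Bmal1. Controls were Bmal1fxfx mice without Cre. The labels disagree on these controls: the genotype and the design text give Bmal1fxfx, the genotype adds the words wild type, and the source name reads Bmal1fxwt. By the first of these they carry the same floxed alleles as the cKO mice. Each of 3 two-colour Agilent arrays compared RNA pooled from 3 cKO mice with RNA pooled from 3 control mice, 9 mice per genotype, and each array is one replicate. The cKO RNA was labelled with cy3 and the control RNA with Cy5 on every array, so an effect of the dye cannot be told apart from one of genotype. All ratios are log2 of cKO over control, means are over n = 3 arrays with their SD, and adjusted p-values come from limma with Benjamini-Hochberg adjustment over all 17858 genes tested, with a threshold of 0.05. The number of arrays limits the precision.

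Bmal1, filed as Arntl, had one probe, whose ratio was 0.27 on array 1, 0.13 on array 2 and -0.24 on array 3 (mean 0.056 ± 0.27). Whether that probe lies inside the deleted part is not given in the sources used here, so it does not check the genotype labels. Ovarian markers were in place: 8 of 8 luteal, 8 of 8 granulosa and 9 of 9 oocyte markers were well above background in both genotypes on all arrays. Between 62.9% and 69.1% of spots were well above background in a channel. Array 1 is on one slide and arrays 2 and 3 are on another.

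The log2 ratio had a slope along the rows of every array that the normalisation by intensity did not remove. In 8 bands of rows, the median log2 ratio of the spots went from -0.31 to 0.24 on array 1, from -0.23 to 0.20 on array 2 and from -0.27 to 0.23 on array 3. The ratios of the scanner software, which removes spatial trends in each colour, stayed between -0.056 and 0.075 over the same bands. Because a probe has the same place on every array, this slope repeats in all 3 replicates. The probes of Ifi27 and Bst2 are in rows 6 and 63, at the low end, and those of Isg15 and Irf3 are in rows 465 and 501, at the high end. Ratios with a fitted surface trend taken out of each array are therefore plotted for every member and printed beside many of the values after intensity loess. This step was chosen after the slope had been seen.

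**Figure D1:**
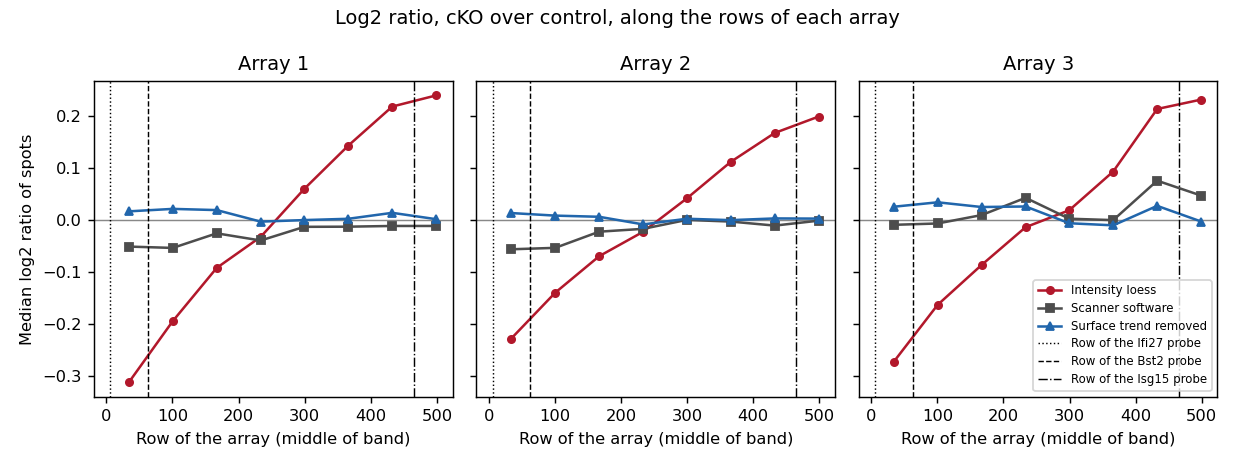
Median log2 ratio of cKO over control (y axis) in 8 bands of rows (x axis, row number at the middle of the band) on each of the 3 arrays, after intensity loess, as the scanner software gives it, and with the fitted surface trend removed. Only the intensity loess values slope, from -0.31 to 0.24 on array 1, and the vertical lines show that the probes of Ifi27 and Bst2 are at the low end and that of Isg15 at the high end.

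None of the 35 genes tested passed the threshold in either direction by limma, where 0.174% of all genes did (31 genes, 0.0672% higher and 0.106% lower in the cKO). The lowest adjusted p-value of the group was 0.147, for Bst2. At an unadjusted p under 0.05, 3 genes were lower in the cKO (Bst2, Ifi27 and Ifit3) and 0 were higher, against 6.43% and 5.9% of all genes in those directions. With the surface trend removed, 2 were lower at that level (Bst2 and Ifit3) and 0 higher, against 3.23% and 3.39%. The members' share of lower genes was 8.57% before and 5.71% after that step, close to the background. Most members were also small in their mean: 31 of 35 had a mean log2 ratio within 0.5 of zero (88.6%, against 90.3% of all genes), and the median of the means was -0.12 against -3.5e-05 for all genes.

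The ratios of the group depended on the array. On array 1 the median log2 ratio of the 35 genes was 0.16 and 23 of them were above zero (65.7%, against 48.9% of all genes). On array 2 the median was 0.092 and 20 were above zero (57.1%, against 49.3%). On array 3 it was -0.51, and 29 of 35 were below zero (82.9%, against 49.6% of all genes). With the surface trend removed the medians were 0.11, 0.031 and -0.57, and 31 of 35 were below zero on array 3 (88.6%, against 47.8%). The median SD of a member over the 3 arrays was 0.43, above the 0.28 of all genes. Without array 3 the median of the means was 0.097, the opposite sign to the value over 3 arrays.

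**Figure D2:**
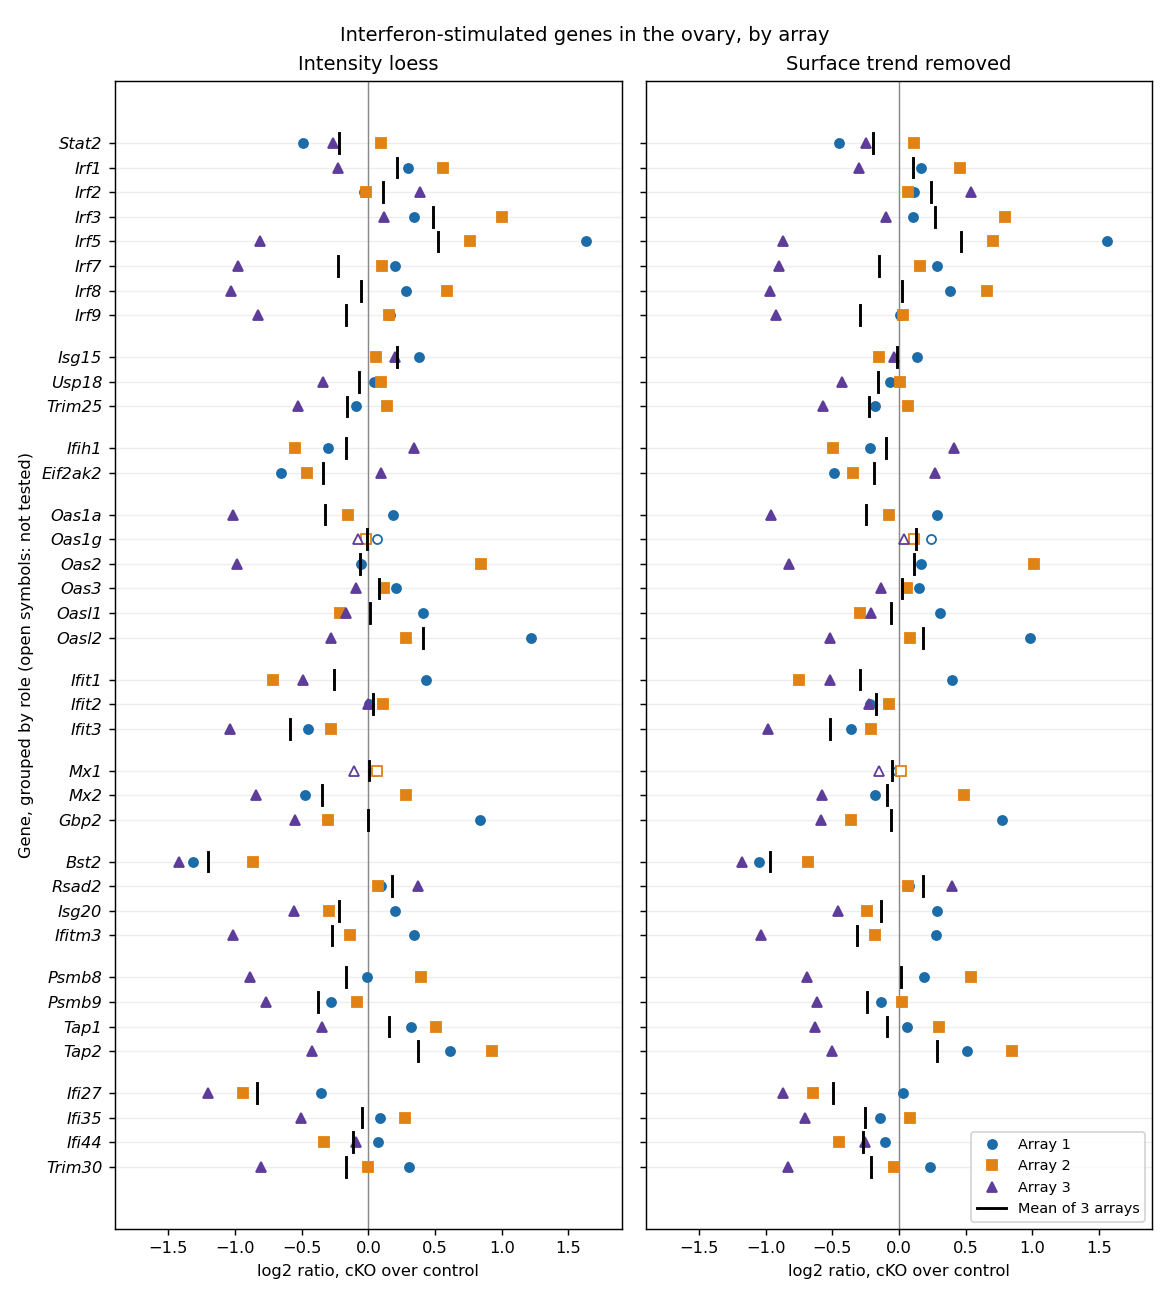
Log2 ratio of cKO over control (x axis) for each of the 37 genes (y axis, grouped by role) on arrays 1, 2 and 3, after intensity loess (left) and with the surface trend removed (right). Black bars are means of 3 arrays and open symbols are the 2 genes that were not tested. Array 3 lies at the left for most genes, and Bst2 is far below zero on all 3 arrays in both panels.

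Members with a log2 ratio of one sign on all 3 arrays were few. Those below zero throughout were Bst2, Ifi27, Ifit3 and Psmb9 (11.4%, against 17.8% of all genes). Those above zero throughout were Irf3, Isg15 and Rsad2 (8.57%, against 17.5%). With the surface trend removed, Bst2, Ifit3, Ifit2 and Ifi44 were below zero on all arrays (11.4%, against 13.6%) and Irf2 and Rsad2 above (5.71%, against 14.4%). Bst2, Ifit3 and Rsad2 kept one sign on every array in both versions. The pattern of a positive ratio on arrays 1 and 2 and a negative one on array 3 was found in 12 members (34.3%, against 17.3%) after intensity loess, and in 12 (34.3%, against 18.7%) with the surface trend removed.

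Bst2 encodes tetherin, a membrane protein that holds budding enveloped viruses at the cell surface. Its log2 ratios were -1.31, -0.87 and -1.42 on arrays 1, 2 and 3, a mean of -1.20 ± 0.29 (95% CI -1.62 to -0.77), which is 2.30-fold lower in the cKO. All 3 arrays went the same way. The unadjusted limma p was 0.00091 and the adjusted p 0.147, so it did not pass. With the surface trend removed the log2 ratios were -1.05, -0.68 and -1.17, a mean of -0.97 ± 0.25 or 1.96-fold lower, with a limma adjusted p of 0.224. The software ratios were -0.94, -0.65 and -1.15. Its processed signal was 32080, 31359 and 27045 scanner units in the cKO pools and 61575, 49196 and 60139 in the control pools, and the genotypes did not overlap. Among the 35 members, only Bst2 and Ifit3 had lower cKO signals that did not overlap with control (5.71%, against 3.67% of all genes), and 0 had higher ones (against 3.21%).

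The Bst2 value rests on a single 60-base probe, printed here because it was the only probe filed under that name.
Bst2 probe: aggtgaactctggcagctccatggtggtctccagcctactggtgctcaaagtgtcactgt

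Of the 37 members, 31 were matched to promoter windows in the RefSeq table (GRCm38.p6), each 300 bases long, from 250 before to 50 after the gene's start. The ISRE was searched on both strands as GAAA, any 2 bases and GAAA, and 15 of the 31 members held it (48.4%, against 3.99% of all 27025 genes in the table). GAS, searched as TTCNNNGAA, was found in 11 members (35.5%, against 9.55%), and the E-box CACGTG, to which BMAL1 and CLOCK bind, in 1 (Trim25, 3.23%, against 8.09%). A match is a string of letters and not evidence of binding. Stretches of 6 members are printed to show the element in members the results describe, 5′ to 3′ on the gene's strand, with capitals marking every ISRE match on either strand.
Bst2, chr8:71537567-71537622, minus strand: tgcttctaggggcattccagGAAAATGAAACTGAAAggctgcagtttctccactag
Ifit3, chr19:34583353-34583436, plus strand: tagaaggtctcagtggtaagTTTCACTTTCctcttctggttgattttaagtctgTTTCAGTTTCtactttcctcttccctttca
Ifit1, chr19:34640765-34640833, plus strand: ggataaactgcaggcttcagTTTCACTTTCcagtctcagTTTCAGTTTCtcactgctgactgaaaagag
Isg15, chr4:156200855-156200916, minus strand: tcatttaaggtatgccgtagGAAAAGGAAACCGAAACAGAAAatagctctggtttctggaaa
Oas1a, chr5:120907526-120907565, minus strand: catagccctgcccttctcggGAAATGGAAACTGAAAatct
Rsad2, chr12:26456543-26456592, minus strand: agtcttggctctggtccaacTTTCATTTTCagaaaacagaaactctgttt

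In Bst2 a pair of ISRE matches overlapped, beginning 130 and 124 bases before the start, and a GAS match began 136 bases before it and overlapped the first. Isg15 had 3 overlapping ISRE matches. Oas1a and Oas1g, near-identical neighbours, had the same pair. The difference between tested members with and without this element was not tested. The 14 with an ISRE had a median of the mean log2 ratios of -0.20 and the 16 without one -0.050, or -0.19 and -0.12 with the surface trend removed. By array, the medians after surface removal were 0.12, -0.16 and -0.38 with the element and 0.13, 0.083 and -0.59 without it.

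**Figure D3:**
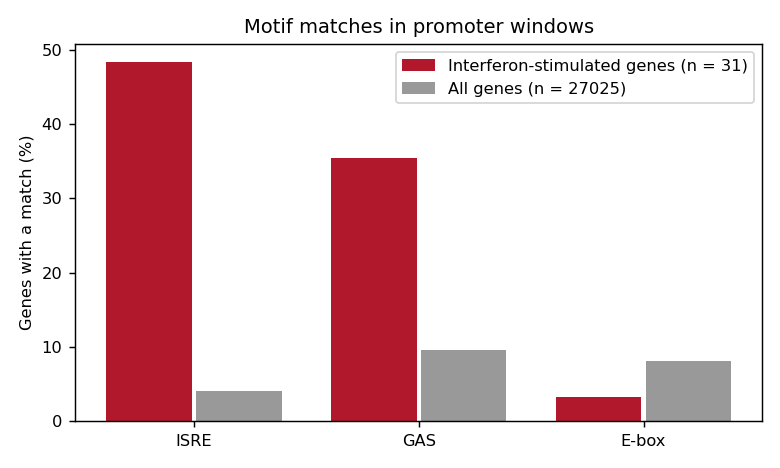
Percent of genes (y axis) whose 300-base promoter window holds the ISRE, the GAS or the E-box letters, for the 31 interferon-stimulated genes with a window and for all 27025 genes in the table. ISRE matches stand at 48.4% against 3.99%, whereas E-box matches stand at 3.23% against 8.09%.

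The factors that drive the response were measured by 8 members. STAT2, a subunit of the complex that binds the ISRE, had log2 ratios of -0.49, 0.093 and -0.27 (mean -0.22 ± 0.29). Irf9, its DNA-binding partner, had 0.16, 0.16 and -0.83 (mean -0.17 ± 0.57, or -0.30 with the surface trend removed). Neither was separated from zero by more than its SD. Irf3, which is present before infection and starts interferon transcription, had 0.35, 1.00 and 0.12 (mean 0.49 ± 0.46, limma adjusted p 0.448). Its mean was 0.27 with the surface trend removed, with array 3 at -0.10. Irf7, the inducible amplifier of interferon alpha genes, had 0.20, 0.11 and -0.98 (mean -0.23 ± 0.66).

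Irf5 and Irf8 are factors of macrophages and dendritic cells, and their arrays were divided. Irf5 had log2 ratios of 1.63, 0.76 and -0.82 (mean 0.52 ± 1.24, adjusted p 0.735 by limma), the highest mean of the group. Its processed signals were 2419, 945 and 1040 in the cKO pools and 744, 540 and 2034 in the control pools. The cKO pool was the higher on arrays 1 and 2 and the lower on array 3, and the genotypes overlapped. Irf8 had 0.28, 0.59 and -1.03 (mean -0.052 ± 0.86). Irf1, an early target of interferon gamma, had 0.30, 0.56 and -0.23 (mean 0.21 ± 0.40). Irf2, its antagonist at shared sites, had -0.035, -0.021 and 0.39 (mean 0.11 ± 0.24) after intensity loess. In that version it was one of 3 members with the reverse pattern. With the surface trend removed it was above zero on all 3 arrays, at 0.11, 0.069 and 0.54.

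ISG15 is a ubiquitin-like protein that is joined to other proteins during the response. Its gene had log2 ratios of 0.38, 0.057 and 0.20 (mean 0.21 ± 0.16, adjusted p 0.607 by limma), above zero throughout, but 0.14, -0.15 and -0.038 (mean -0.016 ± 0.14) with the surface trend removed. Its processed signals were 1312, 824 and 765 in the cKO pools and 1267, 978 and 784 in the control pools, which overlap. Usp18, the protease that removes ISG15 and dampens receptor signalling, had a mean of -0.070 ± 0.24. Trim25, a ubiquitin and ISG15 ligase, had a mean of -0.16 ± 0.34. Neither was beyond its spread.

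The RNA sensors Ifih1 (MDA5, which detects long double-stranded RNA) and Eif2ak2 (PKR, a kinase that halts translation) went against the common pattern. Ifih1 had log2 ratios of -0.31, -0.55 and 0.35 (mean -0.17 ± 0.46). Eif2ak2 had -0.65, -0.46 and 0.097 (mean -0.34 ± 0.39, adjusted p 0.552 by limma, or -0.19 with the surface trend removed). Both were negative on arrays 1 and 2 and positive on array 3. After intensity loess 3 members, with Irf2, showed this pattern (8.57%, against 18.8% of all genes). With the surface trend removed Ifih1 and Eif2ak2 kept it and Irf2 did not. The other probe of Ifih1, in row 515, had a mean of 0.075, so the gene's probes disagreed in sign after intensity loess. With the surface trend removed both means were negative, at -0.099 and -0.17. The probe in row 515 did not show the array pattern in either version. Its log2 ratios were 0.088, 0.049 and 0.088 after intensity loess and -0.17, -0.16 and -0.18 with the surface trend removed.

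The OAS enzymes make short oligoadenylates that activate the nuclease RNase L, and the OAS-like proteins carry ubiquitin-like domains in addition. Oas1a had log2 ratios of 0.19, -0.15 and -1.01 (mean -0.33 ± 0.62). Oas2 had -0.057, 0.85 and -0.99 (mean -0.066 ± 0.92), and Oasl2 had 1.22, 0.29 and -0.28 (mean 0.41 ± 0.76, 0.18 with the surface trend removed). Oasl1, with a mean of 0.0097 ± 0.34, showed no lean. Array 3 was the lowest of the 3 arrays for Oas1a, Oas2, Oas3 and Oasl2. Oas3 was well above background on 3 of 3 arrays in the cKO channel but on 1 of 3 in the control channel, and its mean was 0.079 ± 0.15. Oas1g was not well above background on any array in either channel, and it shares sequence with its neighbour Oas1a, so probes for either are uncertain.

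Among the IFIT proteins, IFIT1 binds viral RNA that lacks the host's cap modification. Ifit3 had log2 ratios of -0.46, -0.28 and -1.04, a mean of -0.59 ± 0.40 (adjusted p 0.349 by limma), and -0.36, -0.21 and -0.98 (mean -0.52 ± 0.41) with the surface trend removed. Its processed signals were 961, 1044 and 1021 in the cKO pools and 1300, 1221 and 2135 in the control pools. The genotypes did not overlap, and array 3, whose control pool was the highest, had the widest gap. Ifit1 had 0.43, -0.72 and -0.49 (mean -0.26 ± 0.61), divided between arrays. Ifit2 had a mean of 0.035 ± 0.064 after intensity loess and -0.17 ± 0.085 with the surface trend removed, and its probe is in row 463.

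**Figure D4:**
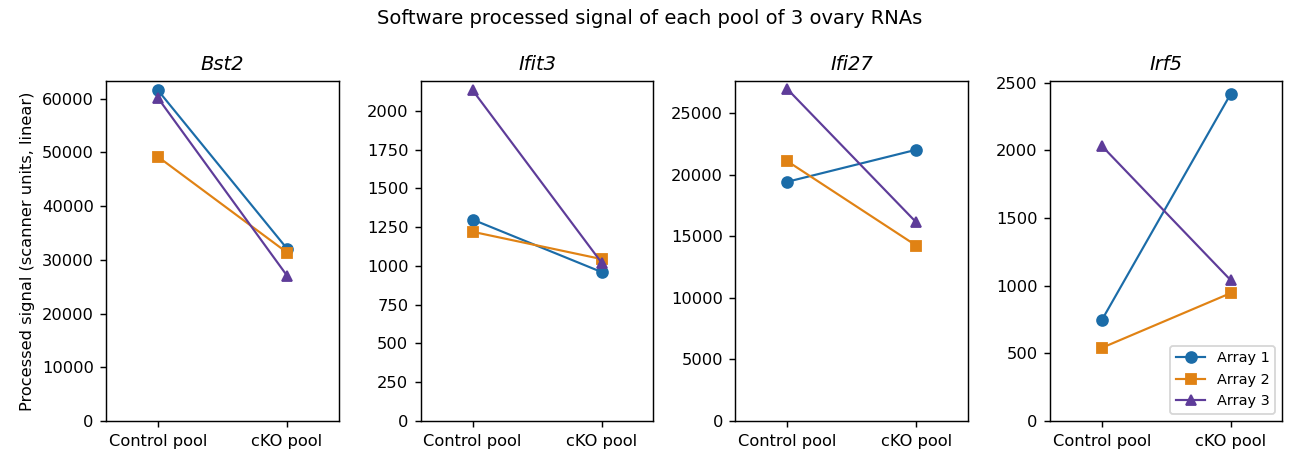
Processed signal of the scanner software (y axis, linear scanner units) of the control pool and the cKO pool joined by a line for each array, for Bst2, Ifit3, Ifi27 and Irf5. Bst2 drops on all 3 arrays from 49196 to 61575 down to 27045 to 32080, Ifit3 drops most on array 3, and the lines of Ifi27 and Irf5 go both ways.

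The GTPases of the group were dim or divided. Mx1 and Mx2 are dynamin-like antiviral proteins that many laboratory mouse strains carry in a defective form. Mx1 was well above background on 2 of 3 arrays in the cKO channel and on 0 of 3 in the control channel, so it was not tested and no fold is given. Mx2 had log2 ratios of -0.47, 0.28 and -0.84 (mean -0.34 ± 0.57, or -0.089 with the surface trend removed). Gbp2, a guanylate-binding protein that attacks the vacuoles of intracellular microbes, had 0.84, -0.30 and -0.55 (mean -0.0042 ± 0.74).

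Among the other antiviral effectors, Rsad2 (viperin, which makes a chain-terminating nucleotide) had log2 ratios of 0.097, 0.071 and 0.37 (mean 0.18 ± 0.17, adjusted p 0.668 by limma), and 0.18 ± 0.19 with the surface trend removed. It was above zero on all arrays in both versions, but its other probes had means of -0.00084 and -0.026. Isg20, an exonuclease, had 0.20, -0.30 and -0.56 (mean -0.22 ± 0.39). Ifitm3, which blocks virus fusion in endosomes, had 0.34, -0.14 and -1.01 (mean -0.27 ± 0.69). Its processed signals were 18706, 17370 and 15574 in the cKO pools and 15808, 20000 and 32803 in the control pools, so the pools overlapped and the control pool of array 3 stood highest.

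The antigen-processing members supply peptides to MHC class I. Psmb8 and Psmb9 are catalytic subunits of the immunoproteasome, and Tap1 and Tap2 form the peptide transporter of the endoplasmic reticulum. Psmb9 had log2 ratios of -0.28, -0.088 and -0.76 (mean -0.38 ± 0.35), and array 2 moved to 0.025 with the surface trend removed. Psmb8 had -0.013, 0.40 and -0.88 (mean -0.17 ± 0.65). Tap1 had 0.32, 0.50 and -0.35 (mean 0.16 ± 0.45, or -0.092 with the surface trend removed). Tap2 had 0.61, 0.92 and -0.42 (mean 0.37 ± 0.70). All 4 were lowest on array 3.

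The last members are interferon-induced genes with other or less defined roles. Ifi27 had log2 ratios of -0.36, -0.94 and -1.20 (mean -0.83 ± 0.43, adjusted p 0.279 by limma), the lowest mean after Bst2 of the group. With the surface trend removed these were 0.033, -0.65 and -0.87 (mean -0.49 ± 0.47, adjusted p 0.818). Its other probes, in rows 309 and 313, had means of -0.28 and -0.32 after intensity loess and -0.35 and -0.32 after surface removal, so the 3 probes came closer together in the second version. The accession shared by the probes in rows 6 and 313 now belongs to Ifi27l2a in RefSeq, and that of the probe in row 309 is a different one. A probe filed under another name, which RefSeq now gives to Ifi27, had a mean of -0.0042 ± 0.25 after intensity loess. Its mean was -0.21 with the surface trend removed. The processed signals of the probe in row 6 were 22040, 14252 and 16143 in the cKO pools and 19433, 21119 and 26989 in the control pools. These overlapped. Ifi35, which binds other interferon-induced proteins, had a mean of -0.048 ± 0.41, Ifi44 one of -0.12 ± 0.20 and Trim30, a TRIM-family regulator now named Trim30a, one of -0.17 ± 0.57. Ifi44 was at -0.27 ± 0.17 with the surface trend removed, below zero on all 3 arrays but with an adjusted p of 0.883 by limma.

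For 12 members more than one probe passed the filter on dim probes. In 6 of these 12 (Ifih1, Irf1, Irf8, Isg20, Psmb8 and Rsad2) the probes' means after intensity loess had opposite signs. For Psmb8 the means were -0.17 and 0.30, with probes in rows 96 and 454, and with the surface trend removed they were 0.012 and 0.11. The probes of Ifih1 also had means of one sign in that version, whereas those of Irf1, Irf8, Isg20 and Rsad2 did not.

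The rest of the pathway was measured through lists of genes outside the group, and none of their genes passed the threshold. Of the interferons themselves, 8 of 9 listed genes had a probe and only Ifnab and Ifng could be tested, with mean log2 ratios of -0.14 and 0.086. Ifnb1, Ifna2, Ifna4, Ifna5, Ifne and Ifnk were too dim to be tested. Among 12 genes of the interferon receptors and the JAK-STAT pathway, 6 were below zero on all arrays and 1 above. Over all genes the shares were 17.8% and 17.5%. The 3 largest were Ifngr1, a chain of the interferon gamma receptor (0.67 ± 0.19), Socs1, a feedback inhibitor (-0.66 ± 0.29), and the phosphatase Ptpn6 (-0.65 ± 0.72). The limma adjusted p was 0.253 for Ifngr1 and 0.280 for Socs1. With the surface trend removed only 3 of the 12 were below zero throughout and 1 above, where 13.6% and 14.4% of all genes were. Ifngr1, Socs1 and Ptpn6 were then at 0.49, -0.35 and -0.55. Among 13 nucleic acid sensing genes, the largest were the RNA sensor Ddx58 (-0.53 ± 0.32), its adaptor Mavs (-0.50 ± 0.51) and the DNA-sensing adaptor Sting1 (0.50 ± 0.27), at -0.22, -0.23 and 0.26 with the surface trend removed.

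A list of 35 other interferon-induced genes had array medians of -0.060, -0.028 and -0.47, the same low array 3 as the members. Of these 35 genes 15 were below zero on all arrays and 3 above, where 17.8% and 17.5% of all genes were. With the surface trend removed 9 were below and 1 above, where 13.6% and 14.4% of all genes were. The largest were Ifitm1, a relative of Ifitm3 (-0.74 ± 0.22), Trim34a (-0.65 ± 0.47) and the GTPase Iigp1 (-0.64 ± 0.26). The limma adjusted p was 0.246 for Ifitm1 and 0.279 for Iigp1. With the surface trend removed the means of Ifitm1, Trim34a and Iigp1 were -0.44, -0.33 and -0.46. Among 11 MHC class I genes, the medians were 0.31, 0.035 and -0.42. Psme1, a proteasome activator, had the largest mean (-0.67 ± 0.20, adjusted p 0.253 by limma), and Pdia3 and Tapbp of the peptide-loading complex had 0.37 ± 0.26 and 0.25 ± 0.60. After surface removal the means of these 3 genes were -0.57, 0.22 and 0.0054.

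Macrophage and pan-leukocyte markers, like the members, were lowest on array 3. The 13 macrophage markers had median log2 ratios of 0.72, 0.52 and -0.46 on arrays 1, 2 and 3, and 0.72, 0.77 and -0.43 with the surface trend removed. All 13 were well above background in both genotypes. Their summed processed signal ranged from 94384 to 196535 in the cKO pools and from 47166 to 89816 in the control pools. Such sums weigh the brightest markers most, and no share over all genes was taken for them. On array 3 the log2 ratio was below zero for 11 of the 13 markers. The largest means were those of Lyz2, the macrophage lysozyme (1.38 ± 1.01), Fcgr1 (0.74 ± 0.47) and Cd68 (0.73 ± 1.30), and none passed. The list was split, with 9 means above zero and 4 below, among them Cd163 at -0.34 and Mrc1 at -0.32. The 5 pan-leukocyte markers had medians of 1.02, 0.49 and -0.29. The 10 T and NK cell markers had -0.016, 0.084 and -0.018, lowest on array 3 by a small margin. Luteal markers (8 genes, 0.14, -0.41 and -0.71) and theca markers (4 genes, -0.026, 0.20 and -0.39) were also lowest on array 3. So were the endothelium, B lymphocyte and fibroblast markers, with array 3 medians of -0.22, -0.26 and 0.085. The 4 neutrophil markers (0.23, -0.087 and 0.089) and the granulosa and oocyte markers were not. Of the plasmacytoid dendritic cell list, which holds the members Bst2, Irf7 and Irf8, the defining genes Siglech and Ccr9 were too dim to be tested. In whole ovary, more cells of a type and more RNA per cell cannot be told apart, and the part of these markers in the members' ratios was not tested.

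**Figure D5:**
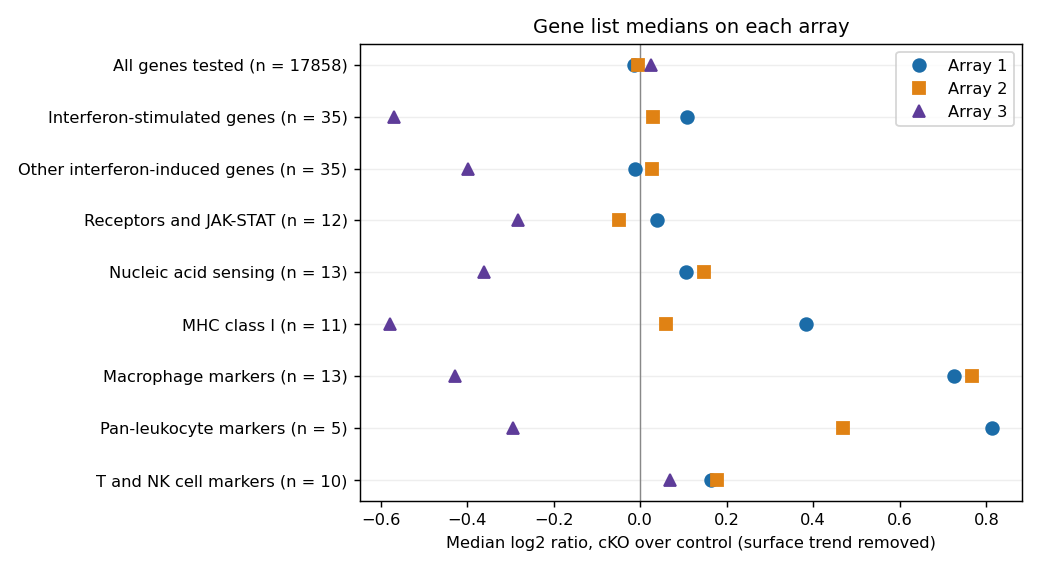
Median log2 ratio of cKO over control with the surface trend removed (x axis) on each of the 3 arrays, for the 35 interferon-stimulated genes tested, all genes, and lists of pathway genes and immune cell markers (y axis, n = genes tested). Array 3 lies lowest for the members at -0.57 and for the macrophage markers at -0.43, while all genes stay near zero on every array.

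Processed signals of the pools were also compared within each genotype. They were set on a log2 scale relative to the median of all genes in the same channel, which leaves array effects on single genes in place. On that scale the cKO pool of array 3 had the lowest signal of the 3 cKO pools for 26 of 35 members (74.3%, against 39.5% of all genes), with a median difference of -0.50 from the other pools. The control pool of array 3 had the highest signal of the 3 control pools for 19 of 35 (54.3%, against 34.1%), with a median difference of 0.23. The cKO pool of array 1 had the highest of the cKO signals for 18 of 35 (51.4%, against 28.4%), with a median difference of 0.34. For the macrophage markers, the cKO pool of array 3 was lowest for 12 of 13 and the control pool highest for 8 of 13. For the list of other interferon-induced genes, the cKO pool of array 3 was lowest for 26 of 35 with a median difference of -0.42, while its control pool was highest for 13 of 35 (37.1%) and lowest for 14, with a median difference of -0.0098. Without array 3, 7 members were higher and 5 lower at an unadjusted p under 0.05 by limma, where 12.7% and 14.1% of all genes were. Those higher were Irf1, Irf3, Irf5, Irf8, Oasl2, Tap1 and Tap2, those lower were Bst2, Eif2ak2, Ifi27, Ifih1 and Ifit3, and none passed the adjusted threshold.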

How the data were processed

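The 3 two-colour Agilent arrays each compared a pool of 3 cKO ovary RNAs (cy3) with a pool of 3 control ovary RNAs (Cy5). RNA was extracted with a Qiagen RNeasy kit and amplified linearly, per the labels' protocols. Per the file headers, Agilent Feature Extraction (version 9.1.3.1) read the spot intensity that the authors deposited. The same files hold processed intensities and the deposited log10 ratio of red over green, already background-subtracted, spatially detrended and dye-normalised by that software. The deposited value table equals those log10 ratios over all 45018 features.

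Here, mean intensities were corrected with normexp (offset 50) against the median local background and loess-normalised within each array, with control spots at weight 0. Outlier spots were dropped and repeat spots of a probe averaged. A probe was kept where either channel was well above background on every array, and the brightest kept probe stood for a gene. Of 43379 non-control spots, 26738 were named by accession, 6246 by symbol and 1810 by synonym in RefSeq, 8529 kept the file's name, and the 55 member probes kept the members' names. Ratios were tested with limma 3.58.1 in R 4.3.3 (lmFit and eBayes, two-sided) with an adjusted p threshold of 0.05. The fit was run on simulated ratios with known changes, drawn independently for each array and without a surface slope or an array effect. That run does not check the fit against those features of the data. The surface trend was a 2-dimensional loess of the log2 ratio over rows and columns. Nothing says that pools came from separate days or cages, so p-values measure only the spread between these pools.

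The members and gene lists were chosen with earlier results of these data known. Every member is named, and of each other list, genes past the threshold and up to 3 with the largest absolute mean, except 1 gene that is not reported here. The macrophage, pan-leukocyte, T and NK cell, and plasmacytoid dendritic cell lists are given with the results. Of the other marker lists, the array medians were 0.084, 0.066 and -0.26 for B lymphocytes (4 genes), 0.23, -0.087 and 0.089 for neutrophils (4), 0.094, 0.085 and -0.22 for endothelium (10) and 0.69, 1.16 and 0.085 for fibroblasts (6). They were 0.14, -0.41 and -0.71 for luteal (8), -0.31, -0.11 and -0.016 for granulosa (8), -0.026, 0.20 and -0.39 for theca (4) and -0.034, -0.34 and 0.088 for oocyte (9) markers, with Star lower past the threshold (-4.09 ± 0.13) and no other marker gene past it. The largest means of these lists were Akr1c18 1.70 and Ptgfr 1.07 (luteal, after Star), Inha -0.45, Cyp19a1 0.43 and Amh -0.17 (granulosa), Ptch1 -0.47, Bmp4 -0.45 and Cyp17a1 0.14 (theca), and Zar1 -0.60, Oosp1 -0.60 and Zp2 -0.55 (oocyte). They were Col1a1 1.02, Col1a2 0.68 and Col3a1 0.59 (fibroblast), Eng 0.52, Robo4 0.47 and Emcn -0.43 (endothelium), Cd22 0.22 and Ms4a1 -0.21 (B lymphocyte), and S100a8 0.18, Csf3r 0.14 and S100a9 -0.081 (neutrophil). Among the lists given with the results they were Cd53 0.70, Ptprc 0.50 and Cd52 0.48 (pan-leukocyte), Gzmb 0.46, Lck -0.45 and Nkg7 0.32 (T and NK cell), and, after Bst2, Ly6d 0.68 and Klk1 -0.36 (plasmacytoid dendritic cell).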

Additional observations from a re-analysis of the deposited data

How the results depend on the processing

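The count of interferon-stimulated genes past the threshold was 0 under every alternative run, and the lowest adjusted p of the group ranged from 0.0641 to 0.698 by limma. For Bst2 the mean log2 ratio ranged from -1.36 to -0.91 over the alternatives. The surface trend and the fixed slide term were added after the data had been seen. A random slide block could not be fitted with 3 arrays and was not run. Using arrays 2 and 3 alone is the same as leaving out array 1. No separate paired analysis was run, because the fit to the ratios already pairs the cKO pool and the control pool of each array.

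Over all genes, 12 were higher and 19 lower in the cKO. The higher and lower counts were 27 and 26 with the software ratios, 20 and 24 without background correction, 26 and 22 with the slide term, 37 and 42 with an intensity trend, 0 and 1 with median centring or with arrays 2 and 3 alone, and 0 and 0 with scaled arrays or no filter. They were 18 and 23 with probes well above background in both channels, and 14 and 22 with the mean of kept probes. With the surface trend removed 23 genes passed, all 23 among the 31 main calls, and 43.5% of them were higher. Leaving out each replicate in turn gave 0 to 11 higher and 0 to 9 lower. The cause was not tested. Of the 31 calls, higher genes were 38.7%, against 50.9% with the software ratios and 54.2% with the slide term. Median centring moved the median of all genes to 0.12.

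Of the 35 members tested, 20 changed sign under some alternative and 15 under none. No share over all genes was taken for this count, and no cause was tested. Median centring gave log2 ratios of 0.20 for Gbp2, 0.17 for Ifi35, 0.052 for Ifih1, 0.16 for Irf8, 0.049 for Irf9, 0.0011 for Isg20, 0.12 for Oas2, 0.033 for Psmb8, 0.031 for Trim25, 0.025 for Trim30 and 0.13 for Usp18. The software ratios gave -0.23 for Ifit2, 0.033 for Irf8, -0.078 for Isg15, 0.097 for Oas2, -0.10 for Oasl1, 0.029 for Psmb8 and -0.015 for Tap1. Removing the surface trend gave -0.17 for Ifit2, 0.025 for Irf8, -0.016 for Isg15, 0.12 for Oas2, -0.064 for Oasl1, 0.012 for Psmb8 and -0.092 for Tap1. Scaling the arrays gave 0.066 for Gbp2, 0.043 for Irf8 and 0.016 for Oas2. The mean of kept probes gave 0.049 for Irf8, 0.017 for Isg20 and 0.069 for Psmb8. The slide term gave 0.21 for Gbp2 and 0.032 for Irf8, and arrays 2 and 3 alone gave -0.028 for Irf5 and -0.19 for Oasl1.

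Leaving out each replicate in turn gave log2 ratios from -0.43 to 0.27 for Gbp2, -0.21 to 0.18 for Ifi35, -0.43 to 0.020 for Ifih1, -0.0020 to 0.055 for Ifit2 and -0.57 to 0.10 for Ifitm3. They ran from -0.028 to 0.18 for Irf2, -0.028 to 1.19 for Irf5, -0.44 to 0.15 for Irf7, -0.37 to 0.44 for Irf8 and -0.34 to 0.16 for Irf9. The ranges were -0.58 to 0.016 for Oas1a, -0.52 to 0.39 for Oas2, -0.19 to 0.12 for Oasl1, -0.45 to 0.19 for Psmb8 and -0.016 to 0.41 for Tap1, and -0.31 to 0.023 for Trim25, -0.40 to 0.15 for Trim30 and -0.15 to 0.066 for Usp18.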

Other observations

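An accession that RefSeq now gives to Ifi27 is carried by a probe that the arrays list as D12Ertd647e, not by the probes filed as Ifi27. That probe gave log2 ratios of 0.058, 0.21 and -0.28 on arrays 1, 2 and 3 after intensity loess (mean -0.0042 ± 0.25). With the surface trend removed they were -0.16, 0.027 and -0.50 (mean -0.21). The software ratios were -0.21, -0.063 and -0.56.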
